A study of Arabidopsis thaliana with 8 samples.

Results

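The 51 genes described here were near silent in mock RNA and present in RNA from leaves treated with elf18. They were chosen on exon counts divided by the total of their library and multiplied by 1000000 (CPM). A gene was kept when it had under 2 CPM in both mock RNA libraries and at least 5 CPM in both elf18 RNA libraries, and 51 of the 27172 genes in the tables met this rule (0.188%). RNA counts over exons chose the genes, so their RNA levels are given as a description, with no test. Ribosome footprints, which the rule did not use, are the measurement tested. They came from the same lysates as the RNA, so the lysates themselves are not an independent repeat.

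Leaves were those of Arabidopsis thaliana Col-0 plants at 3 weeks of age. The treated groups were infiltrated with 10 µM elf18 and the mock groups with 10 mM MgCl2. All 4 groups (elf18 RNA, mock RNA, elf18 footprints and mock footprints) came from plants that carried the transgene 35S:uORFsTBF1-LUC, a luciferase reporter driven by the viral 35S promoter, and each group had 2 libraries. Each of the 4 lysates pooled 2 leaves from each of about 24 plants and gave 1 RNA library and 1 footprint library. The sources used here give no harvest time after infiltration. They do not say whether replicate lysates came from separately grown plants, so p-values measure the spread between these lysates.

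The elf18 peptide is an epitope of bacterial elongation factor Tu. It binds the receptor kinase EFR at the plasma membrane, and the activated receptor complex starts calcium influx, an oxidative burst and MAP kinase signalling, which lead to transcription of defence genes. Such genes include receptors that sense further signals, enzymes of indole and phenolic defence compounds, secreted proteins and regulators that damp the response. Footprints are the messenger RNA fragments that ribosomes protect from RNase, so a transcript that is made but not engaged by ribosomes gives RNA counts with few footprints.

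Exon counts totalled 11127372 and 15405467 in the elf18 RNA libraries and 15031282 and 7898180 in the mock RNA libraries. Footprint counts over coding sequences totalled 6202819 and 5272725 with elf18 and 4752563 and 6717946 in mock. The limit of 2 CPM stood for 30.1 and 15.8 exon counts in the mock libraries, and the minimum of 5 CPM for 55.6 and 77.0 in the elf18 libraries. Genes with at least 1 exon count numbered 14343 and 14007 with elf18 and 16912 and 17104 in mock. In footprints they numbered 16232 and 13916 with elf18 and 12935 and 17795 in mock. The leaf label was checked with mesophyll markers: 6 markers such as RBCS1A, the Rubisco small subunit, summed to 60069 and 69941 CPM with elf18 and 71511 and 69956 CPM in mock RNA. In footprints all 6 markers were lower in both elf18 libraries, with sums of 15838 and 15797 CPM with elf18 and 21959 and 21152 CPM in mock. RBCS1A was called lower (edgeR log2 change -0.50 ± 0.07, adjusted p = 0.00145), and the part of this in the footprint values of the 51 genes, which are shares of a library, was not tested. Of 9 markers of root, pollen and seed, 7 had 0 exon counts in all 4 RNA libraries. Bulk leaves were sequenced, so more cells that express a gene and more RNA per cell cannot be told apart.

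Among the 51 genes, RNA levels spanned 5.66 to 198 CPM in elf18 replicate 1 and 5.13 to 156 CPM in elf18 replicate 2, with medians of 9.17 and 11.2 CPM. In mock the medians were 0.399 and 0.886 CPM. Many of the genes lay near the minimum: 11 genes averaged over 20 CPM with elf18, 16 averaged between 10 and 20 CPM and 24 averaged under 10 CPM. Only 3 genes had 0 exon counts in both mock libraries. They were CYP82C3, AT5G52800 and LECRKA4.2, a lectin receptor kinase, and a further 6 genes had 1 to 3 counts over the mock pair. Neither elf18 library was the higher for most genes, since 25 genes had more CPM in replicate 1 and 26 in replicate 2.

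Genes next to the limits show how the rule cut. Just inside the mock limit was PHO1;H1, with 30 and 11 mock exon counts. Just outside it was MLO6, a membrane protein gene of the powdery mildew susceptibility family, with 66.7 and 85.3 CPM in elf18 RNA against 2.06 and 2.03 CPM in mock RNA. Just inside the elf18 minimum was WLIM2a at 5.13 CPM in its lower elf18 library. AT1G05835 lay just outside it at 4.94 CPM. A further 389 genes under 2 CPM in both mock libraries reached 5 CPM in 1 elf18 library only, 200 in replicate 1 and 189 in replicate 2. The rule with its groups exchanged, under 2 CPM in both elf18 libraries and at least 5 CPM in both mock libraries, was met by 183 genes.

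**Figure D1:**
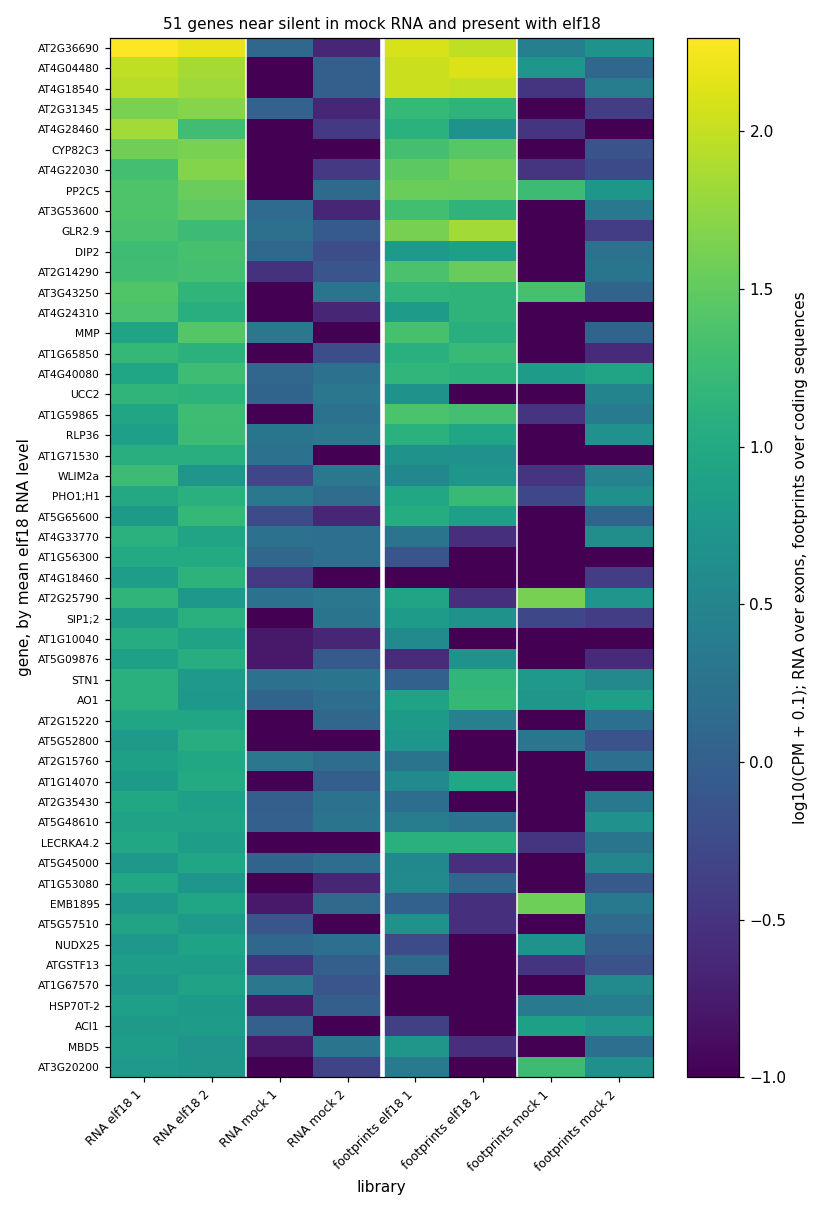
Levels of the 51 genes (rows, by mean elf18 RNA level) in the 8 libraries (columns), as log10 of CPM + 0.1, with RNA over exons on the left and footprints over coding sequences on the right. The RNA contrast is set by the rule. In the footprint columns most of the upper rows, though not PP2C5, are bright with elf18 and dark in mock, while the lower rows are mixed.

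Footprints were higher with elf18 for all of the most abundant genes and for fewer of the others. In 29 of the 51 genes (56.9%) both elf18 footprint libraries lay above both mock libraries in CPM, against 9.2% of all 27110 genes with footprint values and 18% of the 9197 genes with at least 5 exon CPM in both elf18 RNA libraries. In 5 genes (9.8%) both elf18 libraries lay below both mock libraries, against 13.7% of all genes and 26.9% of the 9197. In the other 17 the groups overlapped. All 11 genes above 20 CPM in elf18 RNA were higher in both elf18 footprint libraries, as were 11 of the 16 genes between 10 and 20 CPM and 7 of the 24 genes under 10 CPM. The 5 genes with lower footprints were all in the last class.

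The footprint test called far fewer. With edgeR's quasi-likelihood test and Benjamini-Hochberg adjustment over 14446 genes, 5 of the 51 genes were called higher and 0 lower, where 2.59% of all genes tested were called higher and 0.166% lower. At an unadjusted p under 0.05, 14 were higher and 1 lower in the same test, where 5.49% and 2.87% of all genes tested were. DESeq2 called 15 of the 51 higher and 1 lower, where 4.4% and 1.42% of the 14446 genes were called. Limma voom called 2 higher and 0 lower, where 3.36% and 0.748% were called. Of the 51, 39 passed the filter on low counts. A gene that passed through its elf18 counts alone had to differ, so counts are given over all 51. Without footprint mock replicate 2 edgeR called 12 higher and 1 lower, where 7.17% and 2.17% of all genes tested were called.

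The rule itself, applied to footprints, gave 53 genes, and 11 of them were among the 51. That is 20.8% of the genes that met the rule in footprints and 21.6% of those that met it in RNA, where 0.195% of all genes with footprint values met it. Mock footprints were under 2 CPM in both libraries for 26 of the 51 genes and reached 5 CPM in at least 1 mock library for 10. The label near silent thus holds for mock RNA by construction and for mock footprints in 26 genes. Elf18 footprints reached 5 CPM in both libraries for 22 genes, in 1 library for 9 and in neither for 20.

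**Figure D2:**
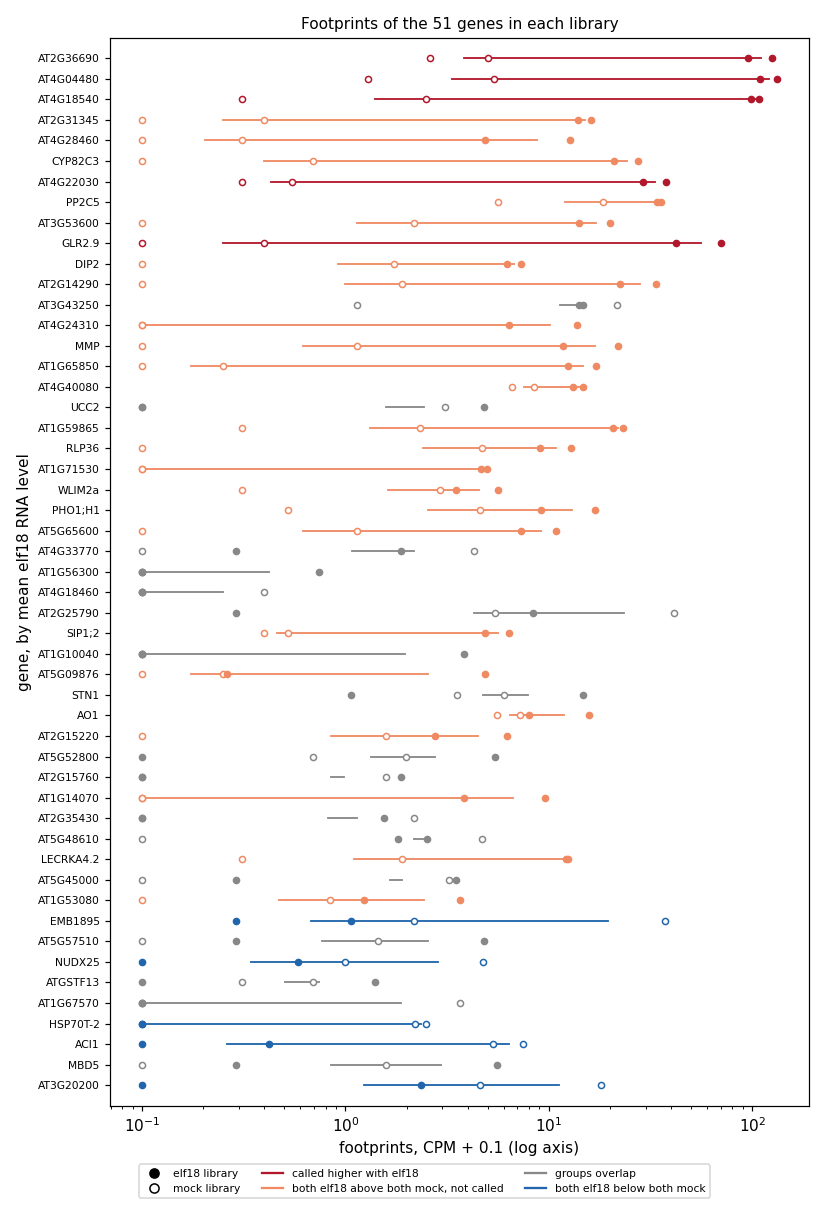
Footprints of each of the 51 genes in CPM + 0.1 on a log axis, with filled points for the elf18 libraries, open points for the mock libraries and a line between the group means. The 5 genes called higher had 29.0 to 132 CPM in the elf18 libraries and at most 5.26 CPM in mock; points at 0.1 had no footprint.

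Of the 5 genes grouped as receptors and a channel, 4 were higher in both elf18 footprint libraries and 1 was called higher. Among all genes with footprint values 9.2% were higher in this sense, and 2.59% of all genes tested were called higher. The group was made after its values were seen. GLR2.9 encodes a glutamate receptor-like channel of a family that conducts calcium. It had 42.1 and 69.8 footprint CPM with elf18 and 0 and 0.298 CPM in mock. The mock pair held 2 footprints in all, so the ratio of counts, scaled by library totals, was 314-fold with a 95% exact counting interval of 86.7 to 2601. It was called higher by edgeR's quasi-likelihood test (Benjamini-Hochberg adjusted p = 0.000512, 2 libraries in each group). Its RNA had 22.6 and 18.3 CPM with elf18 and 1.53 and 0.76 CPM in mock.

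Both L-type lectin receptor kinases met the rule in footprints too. These kinases carry an extracellular lectin domain, and several act in immunity. LECRKA4.2 had 12.3 and 12.1 footprint CPM with elf18 and 0.21 and 1.79 CPM in mock. LecRK-IX.2 (AT5G65600) had 10.8 and 7.21 CPM with elf18 and 0 and 1.04 CPM in mock. Neither was called. The receptor-like protein RLP36, which has extracellular repeats and no kinase domain, had 12.7 and 8.91 footprint CPM with elf18 against 0 and 4.61 CPM in mock. SKM1 (AT2G25790), a receptor kinase with leucine-rich repeats, went the other way in most libraries. Its footprints were 8.22 and 0.19 CPM with elf18 and 41.2 and 5.36 CPM in mock, although its RNA was 14.3 and 5.65 CPM with elf18 and 1.66 and 1.9 CPM in mock. The groups overlapped and SKM1 was not called (log2 change -2.39 ± 1.51, adjusted p = 0.869). It was called lower when footprint elf18 replicate 1 was left out (adjusted p = 0.0443). Without footprint mock replicate 1, which held 196 of its footprints, the log2 change was -0.23 (adjusted p = 1). Each ± after a log2 change is an approximate standard error, the absolute change divided by the square root of edgeR's F statistic.

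Of the signalling enzymes, PP2C5 was not silent on ribosomes in mock. This phosphatase of type 2C dephosphorylates MAP kinases. Its RNA was 24.2 and 34.8 CPM with elf18 and 0 and 1.27 CPM in mock. Its footprints were 35.5 and 33.8 CPM with elf18 and 18.3 and 5.51 CPM in mock, a log2 change of 1.62 ± 0.79 (adjusted p = 0.659). The 87 mock footprints in replicate 1 stood beside 0 exon counts in the RNA library of the same lysate. ITPK2 (AT4G33770), an inositol phosphate kinase, had 11 and 1 footprints with elf18 and 0 and 28 in mock, with overlapping groups.

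Among 4 metabolic enzymes, 2 were higher in both elf18 footprint libraries and 1 was lower in both. Among all genes with footprint values 9.2% were higher and 13.7% lower in this sense. The 2 enzymes tested, CYP82C3 and AO1, were not called, where 2.59% of all genes tested were called higher. ATGSTF13 and NUDX25 did not pass the filter on low counts, so they were not tested. CYP82C3 belongs to a small cytochrome P450 subfamily whose member CYP82C2 makes a hydroxylated indole cyanogenic compound. CYP82C3 had 38.1 and 43.4 CPM in elf18 RNA and 0 counts in mock RNA, which puts it at least 315-fold higher when the mock pair is set to a floor of 3 counts. Its footprints were 20.8 and 27.5 CPM with elf18 and 0 and 0.595 CPM in mock (log2 change 6.25 ± 1.55, adjusted p = 0.059). It missed the threshold in the edgeR test and passed it in 7 of 11 other settings, with adjusted p from 1.05e-06 to 0.365. Of its sister genes, CYP82C2 had 0 exon counts in all 4 RNA libraries, and CYP82C4 had 1, in elf18 replicate 2. How reads shared by these related genes were counted is not known. AO1, an aldehyde oxidase, had 7.9 and 15.6 footprint CPM with elf18 and 5.47 and 7.15 CPM in mock, so its groups only just separated. The glutathione transferase gene ATGSTF13 had 8 and 0 footprints with elf18 and 1 and 4 in mock. NUDX25, a nudix hydrolase gene, had 3 and 0 footprints with elf18 and 22 and 6 in mock.

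Genes of the apoplast and of transport were higher in both elf18 footprint libraries at 3 of 4, against 9.2% of all genes with footprint values. MMP encodes a secreted matrix metalloproteinase. It had 21.9 and 11.6 footprint CPM with elf18 and 0 and 1.04 CPM in mock. PHO1;H1, a relative of the phosphate exporter PHO1, had 9.03 and 16.7 CPM with elf18 and 0.421 and 4.47 CPM in mock. The aquaporin gene SIP1;2 had 6.29 and 4.74 CPM with elf18 and 0.421 and 0.298 CPM in mock. UCC2, a copper protein of the uclacyanin family, had 29 and 0 footprints with elf18 and 0 and 20 in mock, so that each group held a library with no footprint. None of the 4 was called in the edgeR test, and DESeq2 called MMP alone of them higher.

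Of the 7 genes of the nucleus, cytoskeleton and other roles, 2 were higher in both elf18 footprint libraries, 3 were lower in both and 2 overlapped. Among all genes with footprint values 9.2% were higher and 13.7% lower in this sense, and differences between the role groups were not tested. DIP2, named for binding a DNA-binding protein phosphatase, had 38 and 38 footprints with elf18 and 0 and 11 in mock. WLIM2a, which binds actin filaments, had 3.39 and 5.5 footprint CPM with elf18 and 0.21 and 2.83 CPM in mock. EMB1895, named for defects of the embryo, had 6 and 1 footprints with elf18 and 176 and 14 in mock (log2 change -4.94 ± 1.81, adjusted p = 0.336). It was called lower by DESeq2 and without footprint mock replicate 2, while without footprint mock replicate 1, the library with 176 footprints, its log2 change was -1.69 (adjusted p = 1). ACI1, whose protein is named for interacting with the fruit regulator ALC, had 2 and 0 footprints with elf18 and 35 and 35 in mock. The chaperone gene HSP70T-2 had 0 in both elf18 libraries and 10 and 16 in mock. Those 3 genes had 5.66 to 8.57 CPM in the elf18 RNA libraries and 0 to 1.27 CPM in mock RNA. The telomere protein gene STN1 had 6 and 77 footprints with elf18 and 28 and 23 in mock, and MBD5, which binds methylated DNA, had 34 and 1 with elf18 and 0 and 10 in mock.

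The remaining 29 genes have no functional name in the locus table used, so they are given by locus. They include the most abundant genes and 4 of the 5 calls. AT2G36690 led the set, with 198 and 156 CPM in elf18 RNA against 1.2 and 0.127 CPM in mock RNA. Its footprints were 125 and 95.2 CPM with elf18 and 2.52 and 4.91 CPM in mock (log2 change 4.96 ± 0.51, adjusted p = 0.000119). AT4G04480 came next, with 96.8 and 72.1 CPM in elf18 RNA against 0 and 0.886 CPM in mock RNA. Its footprints were 109 and 132 CPM with elf18 and 5.26 and 1.19 CPM in mock (5.35 ± 0.63, adjusted p = 0.000333). These 2 genes were called in all 11 other settings of the footprint test.

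AT4G18540 had 108 and 98.1 footprint CPM with elf18 and 0.21 and 2.38 CPM in mock (6.29 ± 0.73, adjusted p = 0.000296). AT4G22030 had 29 and 37.7 CPM with elf18 and 0.21 and 0.447 CPM in mock (6.63 ± 1.17, adjusted p = 0.00638). Its RNA differed between the elf18 lysates, at 20.2 and 47.7 CPM, while its footprints differed less. AT4G18540, AT4G22030 and GLR2.9 lost their calls under limma voom, with adjusted p of 0.119, 0.369 and 0.117, and were called in the other 10 settings.

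Below these came loci with few or no footprints in mock that were not called. AT2G31345 had 100 and 73 footprints with elf18 and 0 and 2 in mock, an 86.5-fold ratio of counts (95% interval 23.6 to 720). AT4G28460 had 78 and 25 with elf18 and 1 and 0 in mock, 103-fold (18.1 to 4105). AT1G65850 had 76 and 89 with elf18 and 0 and 1 in mock, 165-fold (29.2 to 6553). The elf18 libraries lay clear of mock in each, yet adjusted p was 0.209, 0.615 and 0.159. DESeq2 called all 3, AT2G31345 at an adjusted p of 0.000422, and AT2G31345 and AT1G65850 were also called without footprint mock replicate 2. AT4G24310 had 39 and 72 footprints with elf18 and none in mock, at least 37.0-fold higher with mock set to 3 counts. AT1G14070, with 23 and 50, and AT1G71530, with 30 and 24, also had none in mock and were at least 24.3-fold and 18.0-fold higher. AT2G14290 had 139 and 177 with elf18 and 0 and 12 in mock, and AT3G53600 had 124 and 74 with elf18 and 0 and 14 in mock. DESeq2 called AT4G24310, AT1G14070, AT2G14290 and AT3G53600, and AT2G14290 was called in 6 of the 11 other settings. These intervals and floors cover counting error only.

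Several loci had RNA with elf18 and few or no elf18 footprints. AT4G18460 had 75 and 208 exon counts with elf18 but no footprint in either elf18 library and 0 and 2 in mock. AT1G67570 had 0 and 0 footprints with elf18 and 0 and 24 in mock. AT1G56300 had 4 and 0 with elf18 and none in mock. AT3G20200 had 14 and 0 with elf18 and 85 and 30 in mock, the only locus of the 29 with lower footprints in both elf18 libraries. AT4G18460, AT1G67570, AT1G56300 and AT3G20200 each overlapped another protein-coding gene, and reads of such pairs cannot be told apart. Of their elf18 exon counts, AT1G56300 had 58.2% and AT1G67570 36.8% outside the coding sequence, while AT4G18460 and AT3G20200 had 0%. By contrast, AT3G43250 had elf18 footprints, 91 and 74, and its mock libraries split, with 102 and 7.

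The ratio of footprint CPM to RNA CPM on coding sequences in the elf18 lysates had a median of 0.472 in replicate 1 (n = 51) and 0.381 in replicate 2 (n = 49, since AT1G56300 and HSP70T-2 had no RNA count there). Over the genes with at least 5 exon CPM in both elf18 RNA libraries the medians were 1.04 (n = 9154) and 1.04 (n = 9129). These are descriptions without a test, because the rule picked the genes for RNA above a minimum in the same libraries. GLR2.9 had ratios of 1.52 and 3.18 and AT4G18540 of 1.01 and 1.26, while AT2G36690 had 0.611 and 0.527. In elf18 replicate 2, 13 of the 51 genes (25.5%) had no footprint, against 3.01% of the 9197 genes. In elf18 replicate 1 it was 3 of the 51 (5.88%), against 0.511%. In mock replicate 1 it was 28 of the 51 (54.9%), against 6.43%, and in mock replicate 2 it was 6 (11.8%), against 0.13%, so the mock libraries differed most. The footprint library of elf18 replicate 2 also detected fewer genes in total, and the part of that difference in the missing footprints was not tested.

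**Figure D3:**
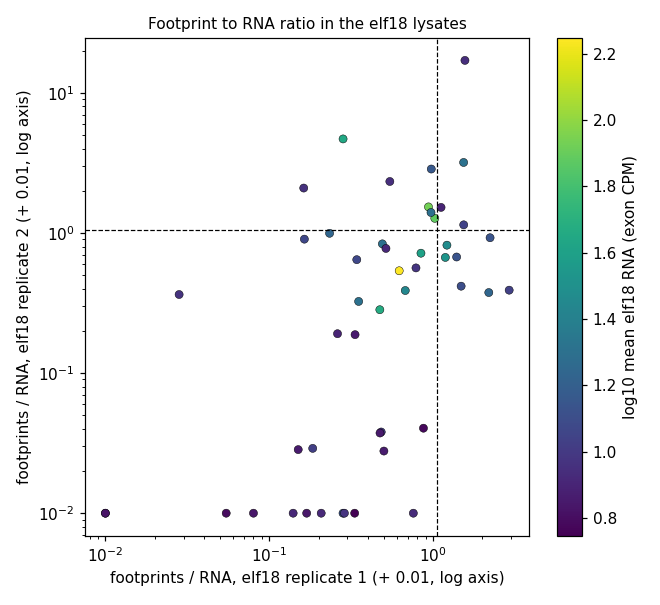
Footprint to RNA ratio on coding sequences of each gene in elf18 replicate 1 (horizontal axis) and elf18 replicate 2 (vertical axis), + 0.01 on log axes, coloured by mean elf18 RNA level; 2 genes with no RNA counts on the coding sequence in replicate 2 are not drawn. Dashed lines mark the median of genes with at least 5 exon CPM in both elf18 RNA libraries (1.04 in each), and most of the 51 genes lie below both lines.

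Some further features were set beside those of other genes, as descriptions without a test. The share of exon counts inside the coding sequence came from the same elf18 RNA libraries that the rule used. In 30 of the 51 (58.8%) every exon count of both elf18 libraries lay in the coding sequence, against 19% of the 9197 genes and 77.9% of the 389 genes that reached 5 CPM in 1 elf18 library only. A few had much of their RNA outside the coding sequence. AT2G15220 had 83.8% of its elf18 exon counts there, with 36 of 98 inside the coding sequence in elf18 replicate 1 and 2 of 136 in replicate 2. AT4G28460 had 422 of 771 exon counts in the coding sequence in elf18 replicate 1 but 13 of 294 in replicate 2. AT1G56300 and HSP70T-2 had 115 of 116 and 42 of 80 in replicate 1, and none in replicate 2. Of the 51, 19 had a gene symbol of their own in the locus table (37.3%, against 38.1% of all genes). The genes lay on all 5 chromosomes, with 12, 12, 6, 10 and 11 on chromosomes 1 to 5. These were 23.5%, 23.5%, 11.8%, 19.6% and 21.6% of the 51, beside 26.0%, 15.6%, 20.0%, 15.2% and 23.2% of all genes.

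No gene of the set was next to another in locus order. By locus table coordinates, 13 of the 51 overlapped another protein-coding gene, among them AT4G04480 with PMP22, AT2G31345 with emb1381, AT4G18460 with SNI1 and AT3G20200 with PRK4. The sources used here do not say whether counting used the strand, so reads of such pairs cannot be told apart. GLR2.9 lies beside GLR2.8, CYP82C3 beside CYP82C4 and LECRKA4.2 between LECRKA4.1 and LECRKA4.3, and reads shared by such related copies are likewise uncertain.

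Genes of known defence pathways were taken from 4 lists. Of 25 planned genes of indole-derived defence metabolites, only the 20 named in the locus table were used. Of these 20, 8 had under 2 CPM in both mock RNA libraries, as did 11759 of all 27172 genes. CYP82C3 alone of the 8 met the rule, which 0.188% of all genes met. In footprints 6 of the 20 were called higher and 0 lower, where 2.59% and 0.166% of all genes tested were called. Those higher included CYP81F2, a P450 of indole glucosinolate modification, and PEN2, the myrosinase that acts on those compounds. The list median was 1.8 on the log2 scale over the 13 tested, against 0.01 over all genes tested. The camalexin genes CYP71A12, CYP71A13 and PAD3 had 0 exon counts in every RNA library. Of 10 planned genes of salicylic and pipecolic acid synthesis, the 9 named in the locus table were used. Of these 9, 3 were under the mock limit, beside the same 11759 of 27172 genes, and none met the rule. In footprints 1 was called higher and 0 lower, beside the same 2.59% and 0.166% (list median 0.46 over 5 tested). FMO1, which makes N-hydroxypipecolic acid, had 0 exon counts throughout.

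The planned list of immune peptide precursors had 8 genes in the tables, and only the 5 named in the locus table were used. Of these 5 precursors of Pep danger peptides, 3 were under the mock limit, as were 11759 of all 27172 genes, and none met the rule. That result does not cover the genes left out. AT4G28460, on the planned list but without a symbol in the locus table, was left out and did meet the rule. Its RNA was 69.3 and 19.1 CPM with elf18 and 0 and 0.253 CPM in mock. PROPEP2 had 84 and 24 exon counts with elf18 and 3 and 1 in mock, and fell short in elf18 replicate 2. PROPEP3, at 32 counts in mock replicate 1, lay above the mock limit. It had 186 and 129 footprints with elf18 and none in mock. Of the 5 genes used, PROPEP3 alone was tested, and it was called higher. Of 7 elicitor markers, 4 were called higher in footprints and 0 lower, where 2.59% and 0.166% of all genes tested were called (list median 1.8 over 6 tested), and FRK1 alone was under the mock limit, with 17 and 0 exon counts with elf18 and none in mock. WRKY33, a transcription factor of camalexin synthesis, had 8746 and 9896 exon counts with elf18 against 2501 and 1313 in mock.

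Markers of other cell types were low beside leaf markers. In RNA, 5 guard cell markers summed to 53.0 and 11.9 CPM with elf18 and 41.6 and 30.3 CPM in mock. The 4 vascular markers summed to 359 and 480 CPM with elf18 and 356 and 308 CPM in mock. The 3 trichome markers summed to 5.84 and 4.22 CPM with elf18 and 0 and 0.886 CPM in mock, with GL1 (MYB0) at 0 in every RNA library; GL2 had 0 and 65 exon counts with elf18 and TTG2 65 and 0. The part of cell composition in the levels of the 51 genes was not tested.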

How the data were processed

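The authors deposited raw read counts per gene, not normalised, in 2 tables: over exons for the 4 RNA libraries and over coding sequences for all 8 libraries. The submitters' processing notes name CASAVA 1.8.2, Bowtie2 2.0, HTSeq and build TAIR10. The HTSeq version, its strand setting, footprint length limits and the handling of reads with several matches are not given in those notes. Footprint values were blank for 62 genes, none of them among the 51.

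CPM used column totals. Footprints of elf18 and mock were compared over the whole table with edgeR 4.0.16 in R 4.3.3 (TMM scaling; filterByExpr at 10 counts; glmQLFit, then glmQLFTest on treatment alone), with Benjamini-Hochberg adjusted p under 0.05 as the call. DESeq2 1.42.0 and limma 3.58.1 were alternatives. The procedure was also run on simulated counts, whose changed genes were not near 0 in mock, so it was not checked for such genes. With 2 libraries a group the smallest exact permutation p is 0.333, so none was used. Fold bounds set an empty group to 3 counts in sum, and ratios from 1 to 3 counts an exact 95% binomial interval.

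The members and lists were chosen with earlier results of these data known. Named genes were the 10 most abundant in elf18 RNA, called genes, the 6 lowest tested in footprints, those next to each limit and list members; others, and the role groups, were chosen after their values were seen. The planned sorting by family key words was replaced by these role groups, because the locus table (assembly TAIR10.1) holds few descriptions; it listed 50 of the 51 loci and was used for names and neighbours only. List loci it does not name were left out. Promoter and protein sequences were not analysed here.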

Additional observations from a re-analysis of the deposited data

How the results depend on the processing

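The number of genes called higher in footprints was 5 to 7 in most settings, and exceeded that in DESeq2 (15) and fell in limma voom (2); leaving out each footprint library gave 5 to 12. The 5 genes of the report were among those called in each setting except limma voom, which kept 2. With the replicate number as a block, 7 genes were called higher. Replicate 1 was lysate 2 in mock and lysate 1 with elf18, and replicate 2 was lysate 3 in both. These numbers are not said to mark a shared batch or day. Deviations of footprint libraries with the same replicate number correlated at r = -0.0621 over 14446 genes. Over all genes the block raised calls to 570 higher and 108 lower, against 374 and 24 without it. They were 636 and 205 in DESeq2, 485 and 108 in limma voom and 1085 and 329 without footprint mock replicate 2. Lower calls alone moved by over 1.5 times without a filter (96), with the spread shared by 8 libraries (43), and on leaving out footprint mock replicate 1 (47) or either footprint library of elf18 (139 without replicate 1, 12 without replicate 2). Of the single-gene values under these settings, 146 kept their direction and side of the threshold, 16 passed it, 3 lost it and 2 changed sign.

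The set itself depended on the rule. It held 22 genes with a mock limit of 1 CPM, 18 with an elf18 minimum of 10 CPM and 221 on group means. On coding-sequence counts it held 50 genes, 31 of them shared, and with TMM library sizes 54. Leaving out each RNA library, tried after seeing the data, gave 118 to 251 genes. The count of genes with separated footprints was 30 to 38, against 29 with all libraries, when each footprint library was left out, also added after seeing the data. ITPK2 changed sign with the replicate block (0.41) and in limma voom (0.0215); the cause was not tested. Fits without a library assume that the lone library varies like the other group. Depth limits the low genes: 3 counts were 0.447 to 0.631 CPM in the footprint libraries.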

Other observations

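Neighbours of the 51 genes in locus order were examined after their values were seen. Of 102 flanking genes, 56 were tested in footprints and 5 were called higher and 0 lower, where 2.59% of all genes tested were called higher and 0.166% lower. LECRKA4.1 and LECRKA4.3 flank LECRKA4.2 and encode kinases of the same lectin receptor group. LECRKA4.1 had 2208 and 1814 footprints with elf18 and 290 and 391 in mock, and LECRKA4.3 had 319 and 212 with elf18 and 14 and 22 in mock. GLR2.8, beside GLR2.9, had 698 and 814 footprints with elf18 and 112 and 86 in mock, so the related channel gene was present on ribosomes in mock leaves where GLR2.9 had 0 and 2 footprints. AT1G59865 lies beside PEN3, an ABC transporter gene with 77400 and 64107 footprints with elf18 and 29046 and 40940 in mock, and AT1G07135 beside STN1 had 1844 and 1571 with elf18 and 205 and 542 in mock.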
